A study of Drosophila melanogaster with 3 samples.

Results

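The genes of the Notch pathway were examined for binding of Nf-YC. This protein is part of the trimeric transcription factor NF-Y, which is known to recognise CCAAT. The members were N, Dl, Ser, Su(H), H, fng, neur, mam, Nct and kuz, 10 of 13945 protein-coding genes, and were taken by gene symbol. All 10 were found in the annotation, 9 by symbol and Dl under its full name, Delta. A peak was assigned to a gene when its summit lay inside the gene or within 5 kb of it, whether or not another gene was nearer.

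The material was whole embryos of Drosophila melanogaster, both sexes pooled, aged 0 to 18 hours. The flies carried a stable transgene for Nf-YC fused at its C terminus to green fluorescent protein, and the fusion was precipitated with an antibody against that tag. All 3 biological replicates carried the transgene and formed 1 group, so the study holds no second condition and no comparison between conditions. The embryos mix every cell type and a wide range of stages, so a weak peak from all cells and a strong peak from few cannot be told apart.

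Notch is a cell-surface receptor that is cut after a ligand on a neighbouring cell binds it. The freed intracellular part enters the nucleus and joins the DNA-binding protein Su(H) and the co-activator Mastermind to switch on target genes. In the fly embryo the pathway is best known for lateral inhibition, in which a cell that becomes a neural precursor keeps its neighbours from doing the same.

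Binding is described with the authors' thresholded set of 7476 peaks, derived for reproducibility between replicates, and with the peak list of each replicate. Not every peak of the set is found in each replicate list. Each replicate list held 30000 peaks, so its length was set by a limit. The strength of a peak is the caller's signal, a score with no stated unit that is not scaled between lists. The median signal was 61.6 in replicate 1 and 45.3 in replicate 2, and lower still in replicate 3. Ranks by signal within a list (1 is the strongest) are therefore given beside it. Library depth is unknown. A promoter summit is a summit within 500 bp of an annotated transcription start site (TSS). A summit was matched to a replicate when that list had a summit within 100 bp.

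The sequence around the strongest summit differed between members, and is shown for N, Ser, fng and neur, whose windows held from 0 to 3 copies of CCAAT. The windows of mam and kuz are not shown. Each run covers 50 bp to either side of the summit on the plus strand of the dm6 genome, from the Release 6 reference, with CCAAT or its reverse complement in capitals.

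Ser chr3R:27194329-27194429: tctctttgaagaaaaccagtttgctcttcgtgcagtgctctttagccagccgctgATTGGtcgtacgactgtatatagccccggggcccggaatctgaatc
fng chr3L:20949576-20949676: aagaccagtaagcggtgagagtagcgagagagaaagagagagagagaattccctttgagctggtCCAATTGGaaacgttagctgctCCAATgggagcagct
neur chr3R:9033881-9033981: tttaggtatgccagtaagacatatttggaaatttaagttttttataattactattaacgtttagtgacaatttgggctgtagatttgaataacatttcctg
N chrX:3162476-3162576: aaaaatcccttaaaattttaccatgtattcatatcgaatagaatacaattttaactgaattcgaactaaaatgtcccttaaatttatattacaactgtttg

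The Ser window held 1 copy of CCAAT, on the minus strand, with its centre 7 bp from the summit. The fng window held 3 copies, centred 16, 19 and 38 bp from the summit. The first pair of these overlap as a palindrome near AG repeats that hold 5 copies of AGAGAG, of which 4 overlap. The windows at neur and N held no CCAAT and were rich in A and T, with a GC content of 27.7% and 23.8%, against 51.5% at Ser and 49.5% at fng. Within 100 bp of the same summits the GC content was 25.4% at neur, 33.8% at N, 53.7% at Ser and 47.8% at fng, and the median over the whole set was 40.8%.

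Of the 10 members, 6 had at least 1 thresholded summit, which were N, Ser, fng, neur, mam and kuz. By the same rule 56.5% of all protein-coding genes had one, so the members' share was close to that of genes in general. A promoter summit was present at 5 members (Ser, fng, neur, mam and kuz), against 30.6% of all genes. Among the longest 25% of genes (4.999 kb or more), 45.8% had a promoter summit and 70.3% a summit by the wider rule. In that class lay 8 of the members, and 6 of those had a summit. The members' median length was 22.8 kb, against 2.17 kb for all genes, so length bears on each of these counts. Counting only summits inside a gene left 3 members, N, neur and mam, against 15.9% of all genes.

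The 6 members held 29 summits, which is 0.388% of the set, and 16 of them were at mam. Per 10 kb of gene with its flanks this came to 0.728 summits, or 0.407 without mam. The value over the windows of all protein-coding genes was 0.813, and over the chromosome arms as a whole it was 0.558. The order of members and all genes depended on the reach. With 10 kb the members' value was 0.682 against 0.807 for all genes, and with 2 kb it was 0.828 against 0.799. Inside the gene alone it was 0.671 against 0.456, where 14 of the 20 member summits were at mam. The value without mam leaves out the member with the most summits, and the members are longer than most genes, so it is given as a description. Keeping summits that were among the 7476 strongest of both other replicates left 13, 15 and 18 of the 29 without replicates 1, 2 and 3, with all 6 members still represented. The same rule kept 4674, 4652 and 5321 of the 7476 peaks of the set.

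**Figure D1:**
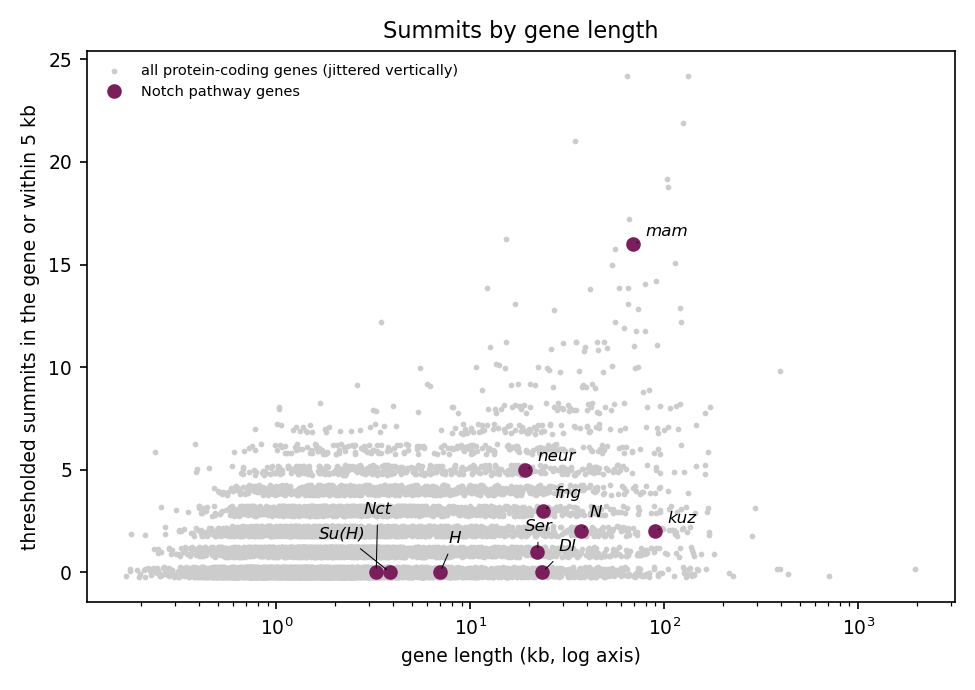
Thresholded summits in a gene or within 5 kb of it (vertical axis, count) against gene length (horizontal axis, kb, log scale) for all protein-coding genes in grey, jittered vertically, and for the 10 Notch pathway genes in purple. The gene mam lies at 16 summits, neur at 5, and Dl, Su(H), H and Nct at 0.

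The same 6 members had a summit among the 7476 strongest peaks of replicate 1, of replicate 2 and of replicate 3. The shares of all genes there were 55.4%, 57.1% and 60.5%. The number of summits was 28, 25 and 24 in replicates 1, 2 and 3 (mean 25.7 ± 2.08, SD, n = 3). A promoter summit was found at 6, 5 and 5 members (5.33 ± 0.577, SD, n = 3), with N as the additional member in replicate 1. The shares of all genes with a promoter summit in these lists are not given, so these counts describe only the spread between lists. The count of members with a summit thus did not vary between replicates, and the promoter count varied by a single gene.

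The ligands differed from each other. Delta (Dl) and Serrate (Ser) are transmembrane proteins that bind Notch from the adjacent cell. Ser (FBgn0004197, chr3R:27172090-27194267, minus strand) had the strongest summit of any member. It lay at chr3R:27194379, 112 bp upstream of its first TSS, in a peak from 27193845 to 27194773 in intergenic sequence. Its signal was 1146, 943 and 564 in replicates 1, 2 and 3 (884 ± 296, SD, n = 3). The ranks were 598, 506 and 548, so although the signal in replicate 3 was the lowest, the summit held nearly the same place in each list. In the thresholded set its signal was 2657 and its rank 532, and 5.49% of all genes had a summit as strong or stronger in their window. It was the gene's single thresholded summit, and the body of the gene held none.

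Dl (FBgn0000463, chr3R:19302731-19326217, minus strand) had no thresholded summit, and the nearest was 79139 bp from the gene's end. Of 864 genes at least as long, 26.5% also had none. The gene was not empty in the full lists. A summit in an intron about 4 kb downstream of the TSS was present in all 3 replicates. Its signal was 65.4, 79.1 and 20.0 in replicates 1, 2 and 3, at ranks 14250, 8800 and 23231. In the pooled list it lay at chr3R:19322143, 4074 bp downstream of the TSS, with a signal of 161 at rank 11166. That list held 1 further Dl summit nearby, at chr3R:19321909, which was stronger (199, rank 9183) but was matched in replicate 3 alone. Both ranks are beyond the 7476 peaks that make up the set. At the Dl promoter, replicate 3 alone listed a summit, 73 bp upstream of the TSS with a signal of 27.8 and rank 15750.

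The receptor gene N (FBgn0004647, chrX:3134870-3172221, plus strand) had its thresholded summits far from its start. The stronger was at chrX:3162526, 27656 bp downstream of the TSS, in the 4.25-kb intron before the largest exon. Its signal was 331, 241 and 134 in replicates 1, 2 and 3 (236 ± 98.6, SD, n = 3), at ranks 2326, 2215 and 2853. The other lay 205 bp further downstream within the same peak (3162366 to 3162881), with signals of 125, 91.1 and 85.0. Both summits were therefore present in every replicate, at signals that were highest in replicate 1. No TSS of another gene lay within 10 kb of the stronger summit, and the nearest belonged to CG18508, 10614 bp away.

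The promoter of N held summits in the lists of replicates 1 and 2 and in the pooled list, but none in the thresholded set. A summit 321 bp upstream of the TSS had a signal of 151 and rank 6203 in replicate 1. In replicate 2 the strongest promoter summit was 126 bp upstream, with a signal of 75.0 and rank 9301, and so not within 100 bp of that of replicate 1. Replicate 3 listed none within 500 bp. In the pooled list the strongest promoter summit lay 360 bp upstream and ranked 10733.

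The gene fng (FBgn0011591, chr3L:20925891-20949512, minus strand) encodes Fringe, a glycosyltransferase that modifies Notch and alters its response to the ligands. It had the second-strongest summit among the members, at chr3L:20949626, 114 bp upstream of the TSS in intergenic sequence. Its signal was 810, 562 and 281 in replicates 1, 2 and 3 (551 ± 265, SD, n = 3). The ranks were 849, 839 and 1207, so replicate 3 was lowest by rank as well as by signal. Of all genes, 1399 had a summit as strong or stronger. A weaker summit lay 205 bp further upstream in the same peak, with signals of 207, 58.1 and 96.7. Its rank varied widely, from 4223 and 4115 in replicates 1 and 3 to 11955 in replicate 2. On the far side of the gene, 3365 bp beyond its 3′ end, an intergenic summit at chr3L:20922526 had signals of 153, 111 and 74.6. The TSS nearest to it was that of CG10589, 5300 bp away.

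The gene neur (FBgn0002932, chr3R:9020348-9039471, minus strand) encodes Neuralized, a ubiquitin ligase that promotes endocytosis of Delta in the signalling cell. Its 5 summits fell at both of its annotated starts and downstream of the second. The strongest, at chr3R:9033931, lay 200 bp upstream of the second start, inside the 5.42-kb first intron. Its signal was 604, 453 and 302 in replicates 1, 2 and 3 (453 ± 151, SD, n = 3), at ranks 1158, 1049 and 1099. As at Ser, the rank was nearly equal in the 3 lists. A summit 209 bp further upstream had signals of 290 and 245 in replicates 1 and 2 and no match in replicate 3. The summit 1721 bp downstream of the second start had signals of 161, 104 and 89.0.

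The remaining pair of neur summits lay at the first start, where hyx, a gene for a subunit of the Paf1 complex of transcription elongation, begins nearby. The summit at chr3R:9038873, 598 bp inside neur, was 113 bp from a TSS of hyx and in its 5′ UTR. Its signals were 216, 162 and 60.1. The summit at chr3R:9039649 lay 178 bp upstream of neur and 117 bp from a TSS of hyx, in an intron of hyx. Its signals were 136, 69.1 and 152, and its best rank, 2471, was in replicate 3, against 6949 and 10114 in replicates 1 and 2. Which of the genes these summits belong to cannot be told from position. Of all genes, 5.65% had 5 or more summits in their window, and 23.6% of the 1073 genes at least as long as neur did.

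**Figure D2:**
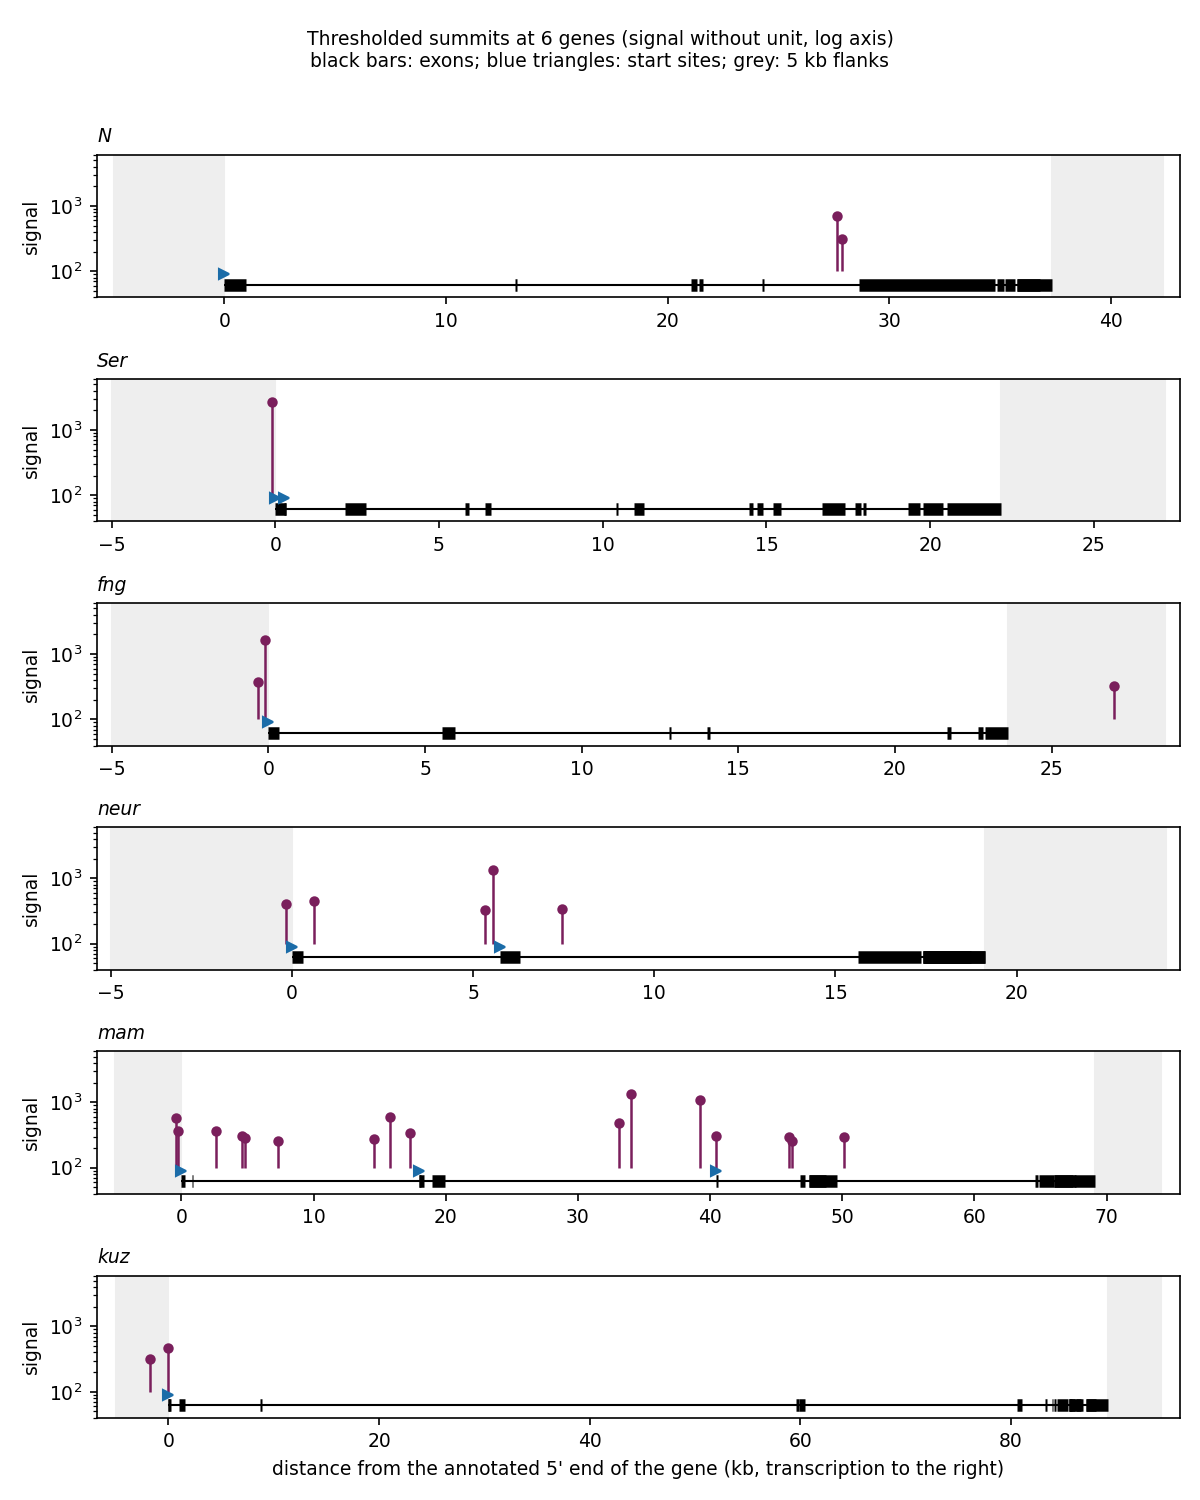
Thresholded summits along the 6 members that had any, with signal (no unit, log axis) against distance from the annotated 5′ end in kb, transcription to the right. Black bars are exons, blue triangles are start sites and grey bands are the 5-kb flanks. The strongest summit lies within 500 bp of a start of the gene at Ser, fng, neur and kuz, but not at N and mam.

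Of the genes for the proteolytic steps, kuz had weaker summits and Nct had none. The gene kuz (FBgn0259984, chr2L:13550139-13639411, plus strand) encodes Kuzbanian, a metalloprotease that makes the first, extracellular cut in bound Notch. It is the longest member at 89.3 kb and had 2 summits, neither of them inside the gene. The stronger lay 5 bp upstream of the TSS, at chr2L:13550134. Its signal was 169, 160 and 157 in replicates 1, 2 and 3 (162 ± 6.14, SD, n = 3), the smallest spread of signal among the members' strongest summits. On the rank scale the same summit moved from 5448 to 3826 and 2396, the widest spread of rank among them. The other lay 1717 bp upstream, in an intron of the neighbouring gene B4 and 651 bp from its TSS, with signals of 98.2, 118 and 95.1. Of the 110 genes at least as long as kuz, 74.5% had a summit and 53.6% had no more than 2.

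Nct (FBgn0039234, chr3R:24851601-24854869, plus strand) encodes Nicastrin, a subunit of the gamma-secretase complex that makes the cut within the membrane. It had no summit in the thresholded set, the pooled list or any replicate list, and the nearest thresholded summit was 21873 bp from the gene.

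**Figure D3:**
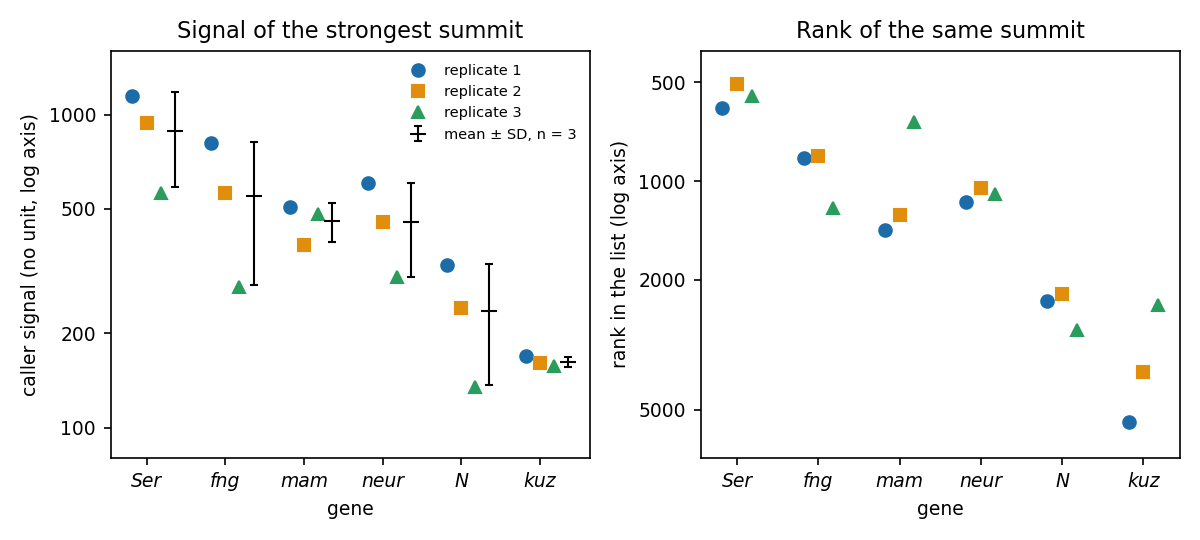
Signal (left, no unit, log axis) and rank (right, log axis with 1 at the top end) of the strongest thresholded summit of each member in the lists of replicates 1, 2 and 3, with the mean and SD of the signal over the 3 lists. At kuz the signals span 157 to 169 while the ranks span 2396 to 5448, and at Ser the signals span 564 to 1146 while the ranks span 506 to 598.

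The nuclear members ranged from the most summits to none. The gene mam (FBgn0002643, chr2R:13991203-14060356, plus strand) encodes Mastermind. Its 16 summits lay in the gene or at its 5′ end, and 13 of them were intronic and away from promoters. Of all protein-coding genes, 10 genes (0.0717%) had 16 or more, and of the 178 genes at least as long as mam, 5 did (2.81%), with a median of 2 summits. The counts among the 7476 strongest peaks of replicates 1, 2 and 3 were 14, 13 and 11 (12.7 ± 1.53, SD, n = 3). Fewer of the 16 were shared, and by the rule above 4, 5 and 9 of them were left without replicates 1, 2 and 3. In the whole set that rule kept 4674, 4652 and 5321 of 7476 peaks, a larger share each time than at mam. The count of 16 therefore rests in good part on summits that were not among the strongest of each replicate.

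Most of the mam summits were weak. The strongest, at chr2R:14025189, lay in the 20.5-kb intron between the second and the third annotated start, 34.0 kb from the 5′ end. Its signal was 506, 383 and 481 in replicates 1, 2 and 3 (456 ± 65.0, SD, n = 3), and its rank was best in replicate 3, at 659 against 1406 and 1267. A TSS of CG18371 was the nearest to it, 3431 bp away. The next, at chr2R:14030472, lay 1191 bp upstream of the third start, with signals of 551, 371 and 169. The following one, at chr2R:14006967 in the 17.1-kb intron before the second start, had signals of 298, 208 and 92.5. Of the 16 summits, 11 were in the weaker 50% of the set by signal.

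At the 5′ end of mam, 2 summits lay 220 bp apart in 1 peak. The summit at chr2R:13990761, 442 bp upstream of mam, was 54 bp from a TSS of the neighbouring gene RN-tre, and had signals of 279 and 178 in replicates 1 and 2 and no match in replicate 3. The summit at chr2R:13990981, 222 bp upstream of mam, had signals of 135, 72.9 and 182. Replicate 3 thus matched the latter alone, by a summit 67 bp away at rank 2016 against 7040 and 9572 in the other lists. At the third start, a summit 46 bp upstream had signals of 157, 118 and 19.0, the last at rank 24535 in replicate 3.

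Su(H) (FBgn0004837, chr2L:15039488-15043334, plus strand) encodes the DNA-binding protein of the pathway, and H (FBgn0001169, chr3R:20621938-20628915, plus strand) encodes Hairless, which turns Su(H) into a repressor. Neither had a summit in the thresholded set, the pooled list or any replicate list. The nearest thresholded summit was 17425 bp from Su(H) and 27259 bp from H. With Nct this made 3 members that were empty in all 5 lists, which was also true of 13.4% of all genes (1871 genes). The share was 11.6% among genes of 2.167 to 4.998 kb, where Su(H) and Nct fall, and 4.25% among longer genes such as H. The depth of the libraries is unknown, so weak binding at these genes cannot be separated from none.

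Over all 29 summits, the strong ones were at few genes. In the strongest 25% of the set were 5, at the starts of Ser and fng, at the second start of neur and, for the remaining 2, in mam introns. In the weaker 50% were 19 of the 29. The median signal of the 29 was 361, against 456 for the whole set. By position, 11 (37.9%) lay at a promoter of any gene, against 53.3% of the set. Introns held 17 (58.6%), against 27.4% of the set, but 13 of those 17 were at mam. The single intergenic summit was the one beyond the 3′ end of fng.

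The members' summits were found in all 3 replicate lists in 22 of 29 cases (75.9%, exact 95% interval 56.5 to 89.7%, which covers counting error only and treats the summits as independent). Over the whole set the share was 80.9%, within that interval. Of the others, 5 were in 2 lists and 2 in 1 list, against 16.6% and 2.34% of the set. Replicate 3 lacked 5 of the 29 (17.2%), against 12.5% of the set. Replicates 1 and 2 lacked 2 each (6.9%), against 4.43% and 4.9% of the set. The 2 summits found in a single list were both at mam, at chr2R:13995763 and chr2R:14037208, and both were in replicate 3, with signals of 69.0 and 59.5. They lay 260 and 224 bp from another thresholded summit of mam. Spacings of about this size also occurred within single peaks, at 205 bp in N and at fng, 209 bp in neur and 220 bp at mam. When overlapping peaks were merged, the 29 summits formed 23 regions.

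In 12 of 29 cases the peak was exactly 480 bp wide with its summit at the centre, and 10 of these 12 were at mam, where they made up 62.5% of the 16. In the whole set 22.2% of peaks had this form, at a median rank of 6123, and 66.1% of them were matched in all replicates. Of the 7 member summits missing from a list, 4 had it. Whether this form comes from the peak caller, and its part in the count at mam, was not tested.

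**Figure D4:**
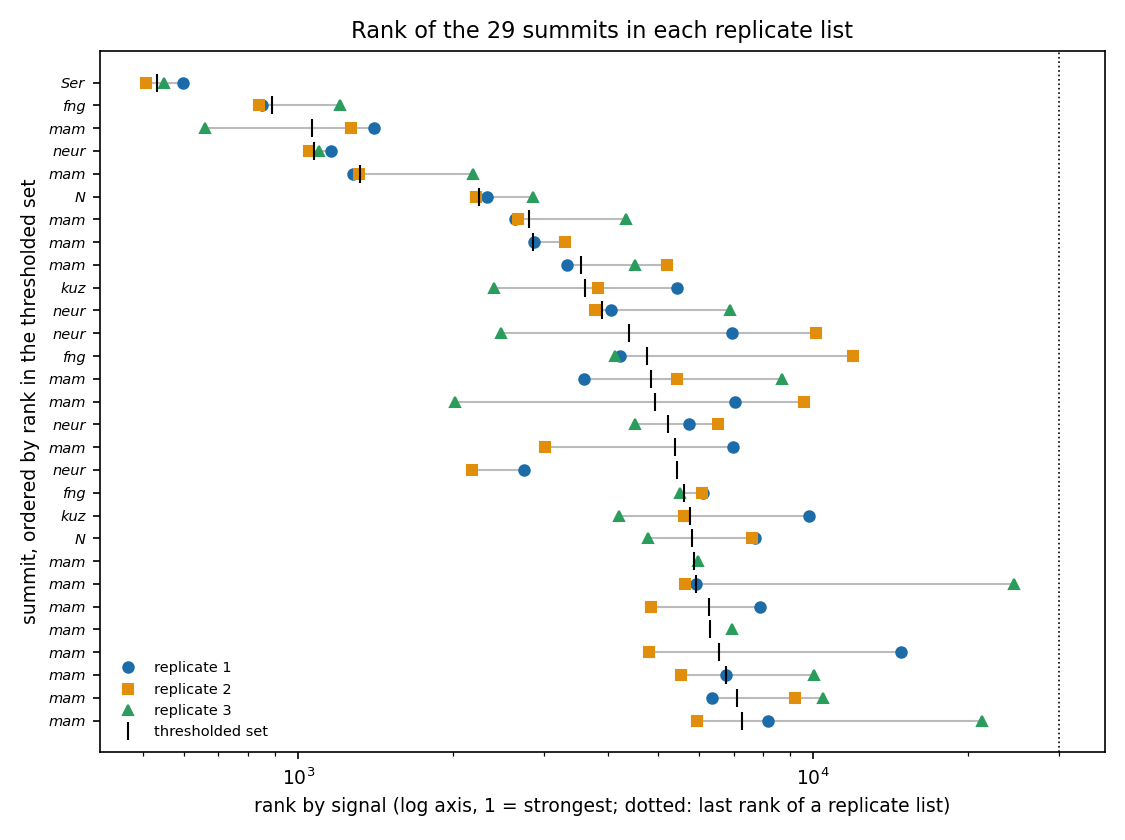
Rank by signal (log axis, 1 is the strongest) of each of the 29 summits in the lists of replicates 1, 2 and 3, with the rank in the thresholded set as a black tick and 1 row per summit. The ranks of the Ser summit span 506 to 598, whereas the mam summit at the third start spans 5632 to 24535, and summits missing from a list lack that symbol.

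CCAAT was searched on both strands within 100 bp of each summit. It was found at 6 of the 29 (20.7%), against 38.1% of the whole set. The exact 95% interval of 7.99 to 39.7% holds the set's share, but it covers counting error only and treats the summits as independent. Of the 6, 2 were among the 16 summits of mam and 4 among the other 13. At promoters it was found at 5 of 11, against 37.1% of the set's promoter summits, and elsewhere at 1 of 18, against 39.2%. Of these 18, 13 were in introns of mam, so they largely describe a single gene. The 6 summits with CCAAT were the Ser summit, the stronger fng promoter summit, the neur summits beside hyx, and 2 at mam. At mam the copy near RN-tre was centred 1 bp from the summit, and the other, at chr2R:13998487 in an intron, 32 bp from its summit. The copies at the hyx start lay 86 and 60 bp away. None of the summits inside N, at the second neur start or at kuz had CCAAT in this window.

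Other motifs were searched in the same windows, on both strands. AGAGAG, the repeat bound by GAGA factor, was at 6 of 29 summits (20.7%), against 17.3% of the set. ACACAC was also at 6 of 29, against 19.6%. TATCGATA, the DNA replication-related element, was at none, against 4.13%. The Su(H) site, spelled CGTGGGAA, TGTGGGAA, CGTGAGAA or TGTGAGAA, was at none, against 1.86% of the set. A count of 0 in 29 independent windows allows a share of up to 10.3%, so neither difference was detectable here. The windows are not all independent, since 16 are at mam and the 29 peaks merge into 23 regions, so this limit is approximate. None of these motifs holds CCAAT or its reverse complement, and a match only describes the window.

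Further genes of the pathway were taken from a list of 22, grouped by role, and all 22 were found in the annotation. A summit was present at 18 of them, against 56.5% of all genes, and a promoter summit at 11, against 30.6%. Their median length was 6.88 kb, also within the longest 25% of genes. The glycosylation genes had one at 2 of 2, the ligand endocytosis genes at 2 of 3, the proteolysis genes at 4 of 5, the nuclear cofactors at 3 of 3, and the genes of receptor traffic and turnover at 7 of 9. The genes with none were lqf, Psn, dx and spdo. Inside the gene alone, summits remained at 7 of the 22, against 15.9% of all genes.

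Many of the strongest summits among them were nearer to another gene. At O-fut1, the enzyme that adds fucose to Notch, the strongest summit had signals of 940, 763 and 864 in replicates 1, 2 and 3, but lay 3800 bp upstream and 132 bp from a TSS of CG13016. At kul, a metalloprotease gene related to kuz, it had 790, 531 and 577 and lay 101 bp from a TSS of CG7601. At pcx, whose maternal loss gives a Notch-like neurogenic defect, it had 670, 484 and 283 and lay 68 bp from a TSS of Vinc. At aph-1, a gamma-secretase subunit gene like Nct, it had 653, 388 and 428 and lay 435 bp upstream, with a TSS of Snx21 nearer at 133 bp.

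Of the 6 strongest, 2 were nearest to their own start. At numb, which encodes an inhibitor of Notch inherited unequally by daughter cells, the summit lay 233 bp upstream of a TSS in an intron. Its signals were 735, 495 and 397, at ranks 952, 964 and 804. At gro, which encodes the co-repressor Groucho, it lay 116 bp upstream of a TSS in an intron, with signals of 377, 301 and 200.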

How the data were processed

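Chromatin immunoprecipitation followed by sequencing was done on 3 biological replicates of 1 group. Per the deposited notes, the authors called peaks for each replicate against 1 shared control alignment, and on the pooled replicates, and derived the thresholded set by the irreproducible discovery rate. The peak score (the caller's signal value) is used as deposited by the authors. Per the labels, coordinates are on dm6. Neither the aligner nor the peak caller is named, and the threshold is likewise not given in the sources; the control alignment was not analysed here. No read counts are held, so the depth per sample and the precision it gives are unknown. A peak called against a shared control can carry that control's error into every list.

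Summits were read 1-based and placed on the Ensembl release 115 annotation (BDGP 6.54), over protein-coding genes of 6 arms, with Python 3.11.15, numpy 2.4.6, pandas 2.3.3 and scipy 1.17.1. Sequences came from the Release 6 genome of RefSeq. The counting was checked on simulated data. No tests were made, because there is 1 group, and counts are set beside those of all genes. The exact intervals for shares of summits are descriptions that treat the summits as independent. The members and lists were chosen with earlier results of these data known. Of the 22 further genes, the 6 with the strongest summit were named, as were genes that hold a described summit or start nearer to it. Alternatives covered the reach around the gene, the peak set, the TSS rule, the match distance, the motif window and each replicate left out.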

Additional observations from a re-analysis of the deposited data

How the results depend on the processing

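The 6 members with a summit were the same with a reach of 2 or 10 kb, in the upper 50% of the set, with any overlap of at least 1 bp, and with each replicate left out. The shares of all genes were 44.2% and 68.5% at 2 and 10 kb, 40.8% in the upper 50% and 57.2% with any overlap. With a replicate left out they were 45.5% to 48.4%. The count fell to 3 inside the gene alone, where the further pathway genes fell from 18 to 7, and rose to 7 in the pooled list, which adds Dl. The share of all genes was 15.9% inside the gene alone and 69.5% in the pooled list. The number of summits depended most on the set, at 10 in the upper 50% and 105 in the pooled list. Per 10 kb this was 0.251 and 2.64, against 0.407 and 2.65 over all genes. With a replicate left out the number of summits was 13 to 18 (0.326 to 0.452 per 10 kb), the 13 without replicate 1. That alternative keeps 4652 to 5321 of the 7476 peaks, so it also lowers the count by its construction, and the value over all genes fell to between 0.501 and 0.581 per 10 kb. Promoter members stayed at 5 under other TSS rules, were 6 in the pooled list and 4 without replicate 1, where mam was lost. The shares of all genes were 26.2% to 33.7% under those TSS rules, 46.1% in the pooled list and 21.7% without replicate 1. Matching within 50 bp lowered the members' share found in all lists from 75.9% to 55.2%, and matching within 250 bp raised it to 89.7%. The shares of the whole set at these distances are not given, so these values describe the match rule only. CCAAT within 250 bp was found at 41.4% of member summits, against 66.4% of the set. For the mean signals of the strongest summits, leaving out 1 of 3 replicates cannot move the value past 1 SD and so says nothing of stability, and match distances of 50 and 250 bp found the same summits. Unknown depth limits what can be said of the genes with no summit. No paired analysis was possible because there is 1 group.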
